A study of Mus musculus with 16 samples.

Results

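All 16 libraries entered 1 comparison: 8 from mice given MYCi975, alone or with TMP195, against 8 from mice not given it. LLC1, a line of mouse Lewis lung carcinoma, had been grown as tumours in the mice, and RNA was sequenced from cells enriched for tumour cells after 16 days of treatment. The 8 libraries with MYCi975 are 4 labelled MYCi975 (50 mg/kg) and 4 labelled Combo, for which the dose of each compound is not stated. The 8 libraries without it are 4 labelled Vehicle (DMSO) and 4 labelled TMP195 (50 mg/kg). Of 24334 genes in the table, 15715 were tested: those with a value at least 1 above the lowest value of the table in 4 or more of the 16 libraries. TMP195, an inhibitor of class IIa histone deacetylases, was present in 4 libraries of each arm and stood in the model as a covariate. Strain, sex and age of the mice, the route of dosing and the means of enrichment were not given in the labels.

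MYC is a transcription factor that pairs with MAX and binds E-boxes, short sites whose best known form is CACGTG, at genes for ribosome production, nucleotide and polyamine synthesis, glycolysis and cell division. MXD proteins, MXI1, MNT and MGA also pair with MAX and oppose MYC at the same sites. MYCi975 is a small molecule that binds MYC, disturbs its pairing with MAX and promotes loss of the protein, so an mRNA table does not measure its direct action. The comparison asks which transcripts of the enriched tumour cells differed with MYCi975, whether or not TMP195 was given.

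No gene passed the test with MYCi975 as the factor. The limma test with Benjamini-Hochberg adjustment over all 15715 genes called 0 genes (0% of those tested), and the smallest adjusted p was 0.536. Without adjustment, 849 genes (5.4%) had a p under 0.05, 393 higher (2.5%) and 456 lower (2.9%) with MYCi975. The genes with the smallest p that were lower with MYCi975 included Gclc, Pgam1 and Pdk1, and those that were higher included Ror1, Tbx2 and Gli2. In the gene lists, most measured genes of NRF2 targets, glycolysis and the hypoxia response were lower with MYCi975, against 50.5% of all genes. These lists were lower by medians of 0.19 to 0.25, while MYC target genes were lower by a median of 0.05. The hypoxia median was -0.09 in MYCi975 minus Vehicle and -0.42 in Combo minus TMP195. The lists were chosen with earlier results of these data known. Differences are on the deposited scale, which runs close to log2, and a single gene's difference had a median standard error of 0.11 and a median 95% interval of 0.23 on either side.

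The size of differences that these libraries leave possible was bounded gene by gene. For 14383 genes (91.5%) the 95% interval lay within 1.5-fold on either side of 0, reading the scale as log2. The estimate itself passed 1.5-fold for 91 genes (0.579%), 41 higher (0.261%) and 50 lower (0.318%). Differences above 0 were found for 49.5% of genes, and the median over all genes was -0.00126. The scale compresses weakly expressed genes, so it understates their fold changes, and the labels do not tie each library to its own animal, so a p-value sets a difference against the spread between libraries only, which may be technical. With TMP195 given as the factor in the same fit, 688 genes (4.38%) had an unadjusted p under 0.05 and limma called 0.

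A few facts of the 16 libraries bear on these values. Between 1960 and 3130 genes stood at the lowest value, 4.84, in a library, and the total count behind each library is unknown. On the first principal component, which held 21.2% of the variance, replicates 4 of Vehicle, TMP195 and MYCi975 lay between 26.6 and 33.2 and the other 13 libraries at or below 5.9, so 1 library with MYCi975 and 2 without it stood apart. The mesenchymal markers Vim (16.69 to 17.54) and Fn1 (16.88 to 17.85) were high in every library, and Krt8 and Krt18 were detected in every library. The epithelial markers Epcam, Cdh1 and Cldn4 were at the lowest value in 9, 5 and 11 libraries and were not tested. In such bulk samples, fewer cells of a type and less RNA per cell cannot be told apart.

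The 12 genes with the smallest p in the lower direction are given first. Gpcpd1, a phosphodiesterase that acts on glycerophosphocholine, had the smallest p. Its values were 9.89, 10.02, 10.22 and 10.66 as group means of MYCi975, Combo, Vehicle and TMP195. With MYCi975 its libraries ran from 9.57 through a median of 10.01 to 10.13, and without it from 10.05 through 10.41 to 10.88. Vehicle replicate 3, at 10.05, was the 1 library without MYCi975 inside the range of the other arm. The difference was -0.48 (SE 0.09, n = 8 against 8, limma adjusted p = 0.536).

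Gclc encodes the catalytic subunit of glutamate-cysteine ligase, which makes the first product of glutathione synthesis. Its 4 MYCi975 libraries were at 9.52, 9.67, 9.66 and 9.51 and its 4 Combo libraries at 9.84, 9.49, 9.65 and 9.75. The Vehicle libraries were at 9.82, 10.13, 10.04 and 9.82, and the TMP195 libraries at 9.89, 10.23, 10.11 and 10.03. Only Combo replicate 1 lay above the lowest library without MYCi975. The difference was -0.37 (SE 0.08, limma adjusted p = 0.536), and it was -0.36 without TMP195 and -0.38 with it.

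Pgam1, phosphoglycerate mutase of glycolysis, was the 1 gene (0.00636% of those tested) whose 8 libraries with MYCi975 all lay below the 8 without. They ran from 13.40 to 13.91 with MYCi975 and from 13.93 to 14.34 without it, so the gap between the arms was small against the range within each. The difference was -0.35 (SE 0.08, limma adjusted p = 0.654). Pdk1, the kinase that shuts off pyruvate dehydrogenase, ran from 10.47 to 11.16 with MYCi975 and from 10.89 to 11.90 without. TMP195 replicate 1, at 10.89, was the 1 library without MYCi975 inside the range of the libraries with it. Pdk1 differed by -0.54 (SE 0.13, limma adjusted p = 0.654).

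The other 8 leading lower genes differed by -0.68 to -0.31. Adamts7, a secreted metalloprotease, differed by -0.68 (SE 0.15), Atp8b4, a phospholipid flippase, by -0.58 (SE 0.12) and Kif21b, a kinesin, by -0.55 (SE 0.14). Lgals3, the carbohydrate-binding protein galectin-3, ran from 9.54 to 10.01 with MYCi975 and from 10 to 10.62 without it, a difference of -0.50 (SE 0.10). Rusc2 differed by -0.47, the endocytic receptor gene Ly75 by -0.45, the interleukin-1 receptor subunit Il1rap by -0.45 and the centrosomal gene Fgfr1op by -0.31.

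The 12 leading genes in the higher direction follow. Ror1, a receptor tyrosine kinase-like receptor for Wnt5a, ran from 6.46 through a median of 6.68 to 6.96 with MYCi975 and from 5.75 through 6.08 to 6.68 without. Of the libraries without MYCi975, only Vehicle replicate 1, at 6.68, reached that range. The difference was 0.61 (SE 0.12, limma adjusted p = 0.536). Without Vehicle replicate 1 it was 0.69, with a limma adjusted p of 0.0612, which was the smallest for any gene in any alternative fit of this comparison.

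Tcf4, an E-protein transcription factor, was 1 of 3 genes (0.0191% of those tested) with all 8 libraries with MYCi975 above the 8 without. Its libraries ran from 14 to 14.23 with MYCi975 and from 13.60 to 13.95 without, a difference of 0.29 (SE 0.07, limma adjusted p = 0.654). The other two, named here after their values were seen, were Zfp715, a zinc finger gene, with a difference of 0.34, and Pcdhb21, a clustered protocadherin, with 0.25. Pcdhb21 has close relatives in its cluster, between which reads may be shared.

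Spry4, an inhibitor of receptor tyrosine kinase signalling, ran from 11.77 through 12.15 to 12.23 with MYCi975 and from 11.23 through 11.70 to 11.96 without, a difference of 0.40 (SE 0.10). Tbx2, a T-box transcription factor, ran from 6.87 to 7.95 and from 6.34 to 7.38, a difference of 0.74 (SE 0.18). Gli2, a transcription factor of the Hedgehog pathway, differed by 0.60 (SE 0.16), the nuclear receptor coactivator Ncoa1 by 0.52 (SE 0.13) and Creb3l2, a membrane-bound transcription factor, by 0.27 (SE 0.07). Abca9 (0.74), Rnf182 (0.62), Jup, the junction protein plakoglobin (0.58), Adamts3, a procollagen-cleaving protease (0.57) and Klhl36 (0.35) complete the 12. All 24 leading genes had limma adjusted p-values between 0.536 and 0.757.

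**Figure D1:**
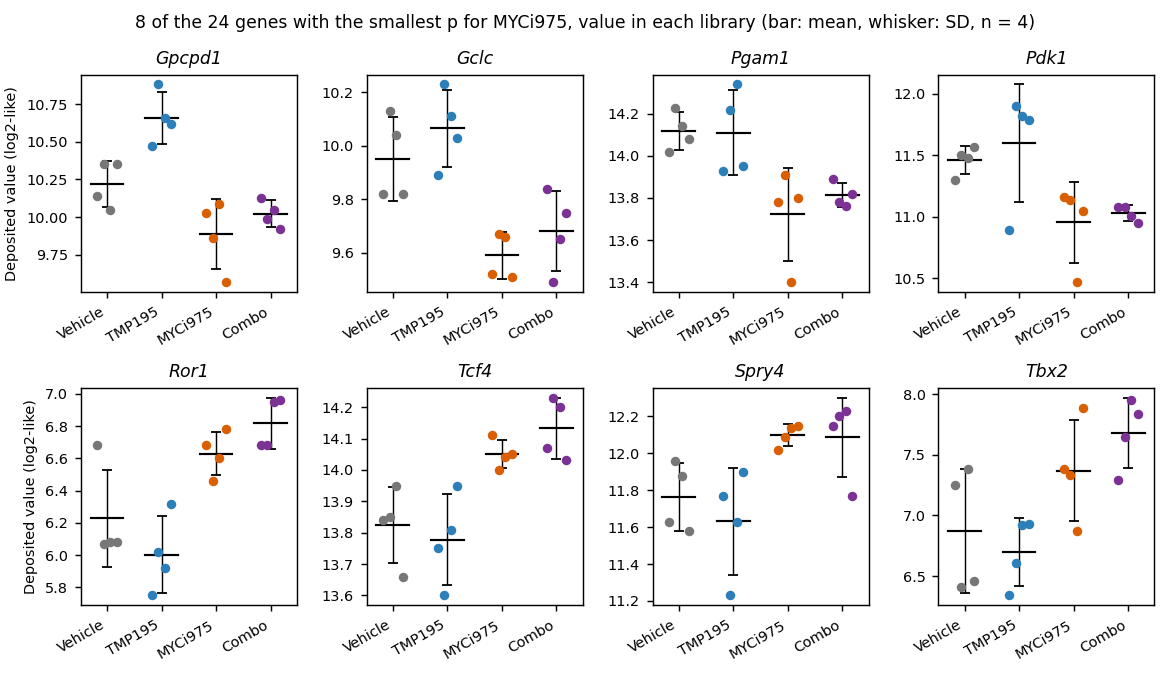
Deposited value (log2-like, vertical axis) of 8 of the 24 leading genes in each library of Vehicle, TMP195, MYCi975 and Combo, 4 points a group, with the group mean (bar) and SD (whisker). Gpcpd1, Gclc, Pgam1 and Pdk1 sat lower and Ror1, Tcf4, Spry4 and Tbx2 higher in both groups given MYCi975, and only Pgam1 and Tcf4 have no library of one arm inside the range of the other.

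The targeted factor and its partners were examined next. Myc mRNA ran from 11.07 through 11.46 to 12.17 with MYCi975 and from 11.46 through 11.74 to 12.06 without. The lowest and the highest Myc values both belonged to Combo libraries (replicate 2 at 11.07 and replicate 1 at 12.17), so the arm with MYCi975 enclosed the other. The difference was -0.27 (SE 0.14, 95% interval -0.57 to 0.03, limma adjusted p = 0.949). It ranged from -0.37 without Combo replicate 1 to -0.20 without Combo replicate 2.

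Mxd4, a MAX partner that represses MYC sites, was the 1 of 10 tested network genes at an unadjusted p under 0.05, against 2.5% of all genes in the higher direction. Its difference was 0.28 (SE 0.09, limma adjusted p = 0.757), with 0.32 without TMP195 and 0.24 with it. The other 9 were below 0. Mxi1, which also pairs with MAX, differed by -0.21 (SE 0.11), Mlx by -0.13 (SE 0.14), Mnt by -0.09 (SE 0.07) and Mga by -0.09 (SE 0.09), with Mlx at 0.01 and Mga at 0.02 once all libraries numbered 4 were left out. Max (-0.01, SE 0.08) and Mxd1 (-0.02, SE 0.13) were near 0, and the sign of each depended on which library was left out. Mycl was too low to be tested. The class IIa deacetylase genes targeted by TMP195 differed by -0.15 (Hdac4), -0.13 (Hdac9), -0.08 (Hdac5) and -0.06 (Hdac7) with MYCi975, and none had an unadjusted p under 0.05.

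Genes known as MYC targets differed little. Of 60 in the list, 59 were tested, 41 were lower and 18 higher, with a median of -0.05 beside -0.00126 over all genes. The list held 2 members at an unadjusted p under 0.05 in the lower direction, Ldha and Rrp12, which is 3.39% against 2.9% of all genes. Ldha, lactate dehydrogenase A, differed by -0.26 (SE 0.09, limma adjusted p = 0.805), with libraries from 13.72 to 14.28 with MYCi975 and from 13.97 to 14.53 without. Rrp12, a factor of ribosomal RNA processing, differed by -0.14 (SE 0.06, limma adjusted p = 0.916). Classical targets of nucleolar and polyamine function lay near 0, with 0.02 for Ncl (nucleolin), 0.01 for Npm1 (nucleophosmin) and 0.01 for Srm (spermidine synthase), while Odc1 (ornithine decarboxylase) was at -0.16.

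The 95% interval lay within 1.5-fold for 56 of the 59 MYC targets (94.9%), close to the 91.5% of all genes. The mean over the list was 10.70 ± 0.08 (SD, n = 8) with MYCi975 and 10.76 ± 0.08 (SD, n = 8) without, and the arms overlapped from 10.65 to 10.85. The medians of the 2 contrasts within the design were -0.08 for MYCi975 minus Vehicle and 0.01 for Combo minus TMP195.

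Ribosome production and translation showed the same small size. Of 50 ribosome biogenesis genes 33 were lower and 17 higher (median -0.04). Utp4 (-0.17, SE 0.08) and the helicase gene Ddx21 (-0.13, SE 0.06) were the 2 at an unadjusted p under 0.05. That is 4% of the list, against 2.9% of all genes in the lower direction. All 50 had intervals within 1.5-fold. Of 67 cytosolic ribosomal protein genes 47 were lower, with a median of -0.04 and 1 gene, Rpl12 (-0.13, SE 0.06), at that p. Ribosomal protein genes have many near-identical pseudogenes, so their values are uncertain. Among 29 translation factor and tRNA ligase genes, Eif4ebp1, the translation repressor 4E-BP1, was the 1 at that p (-0.25, SE 0.09), and among 26 nucleotide synthesis genes it was Ctps, CTP synthase (-0.29, SE 0.14).

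The promoters of a few genes that the results turn on are shown as sequence, since the motif counts that follow rest on their letters. Each is 250 bases before to 50 after the start of the gene from RefSeq (build GRCm38.p6), written 5′ to 3′ on the strand of the gene, with matches to the searched motif in capitals. Utp4 (chr8:106893390-106893689, plus strand) shows CACGTG, the E-box. Ldha (chr7:46845554-46845853, plus strand), Pgam1 (chr19:41911621-41911920, plus strand) and Bnip3 (chr7:138909457-138909756, minus strand) show ACGTG, the shared letters of sites of the hypoxia-inducible factors, which also lie inside every CACGTG. Txnrd1 (chr10:82858956-82859255, plus strand) shows TGACNNNGC, the antioxidant response element known as the site of NRF2, here on the reverse strand. Ldha has 2 promoter entries and Txnrd1 3. For each gene only 1 entry holds the searched motif, and that entry is the one shown.
Utp4: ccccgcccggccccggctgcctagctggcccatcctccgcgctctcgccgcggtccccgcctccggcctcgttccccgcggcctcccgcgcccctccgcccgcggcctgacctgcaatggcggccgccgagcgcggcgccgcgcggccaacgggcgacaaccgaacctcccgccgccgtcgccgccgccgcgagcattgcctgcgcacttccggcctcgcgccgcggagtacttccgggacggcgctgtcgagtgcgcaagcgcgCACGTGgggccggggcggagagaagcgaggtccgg
Ldha: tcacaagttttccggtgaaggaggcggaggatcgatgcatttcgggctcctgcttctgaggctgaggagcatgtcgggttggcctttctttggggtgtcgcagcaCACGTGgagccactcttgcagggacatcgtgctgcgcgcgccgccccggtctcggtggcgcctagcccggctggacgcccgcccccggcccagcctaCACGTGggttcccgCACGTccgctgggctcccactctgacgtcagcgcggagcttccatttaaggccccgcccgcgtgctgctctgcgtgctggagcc
Pgam1: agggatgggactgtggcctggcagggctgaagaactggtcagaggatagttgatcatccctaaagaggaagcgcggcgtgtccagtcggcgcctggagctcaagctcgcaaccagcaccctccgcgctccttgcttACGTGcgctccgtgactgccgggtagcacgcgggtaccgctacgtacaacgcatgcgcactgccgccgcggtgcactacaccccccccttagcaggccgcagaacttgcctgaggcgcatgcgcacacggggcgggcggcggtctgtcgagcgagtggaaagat
Bnip3: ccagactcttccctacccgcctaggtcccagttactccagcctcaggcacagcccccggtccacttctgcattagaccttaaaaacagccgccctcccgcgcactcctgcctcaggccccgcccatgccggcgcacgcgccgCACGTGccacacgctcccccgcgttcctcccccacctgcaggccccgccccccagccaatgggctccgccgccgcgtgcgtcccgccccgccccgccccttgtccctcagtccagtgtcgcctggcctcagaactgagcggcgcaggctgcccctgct
Txnrd1: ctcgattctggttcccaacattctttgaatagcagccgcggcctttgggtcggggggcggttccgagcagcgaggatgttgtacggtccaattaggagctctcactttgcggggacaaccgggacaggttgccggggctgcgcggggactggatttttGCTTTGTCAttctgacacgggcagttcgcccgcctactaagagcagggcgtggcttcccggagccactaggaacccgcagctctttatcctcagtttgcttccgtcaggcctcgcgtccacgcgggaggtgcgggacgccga

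Both strands were searched in the promoters of 10235 tested genes that have an entry. A gene with several entries was counted as holding a motif if any of them held it. CACGTG was found for 11.4% of all these genes, for 32.1% of MYC targets (17 of 53), 17.8% of ribosome biogenesis genes (8 of 45) and 18.2% of glycolysis genes (4 of 22). TGACNNNGC was found for 16.6% of all genes and 37.5% of NRF2 list genes (9 of 24). ACGTG was found for 28.9% of all genes, for 63.6% of glycolysis genes (14 of 22) and for 85.7% of hypoxia genes (12 of 14), but also for 52.8% of MYC targets (28 of 53) and 40.0% of ribosome biogenesis genes (18 of 45). These are matches of letters, a description of the lists and not of binding.

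NRF2 is a transcription factor that KEAP1 holds in check until oxidants or electrophiles release it, and its targets make glutathione, recycle thioredoxin and supply NADPH. Of 29 genes in this list 28 were lower with MYCi975 and 1 higher, with a median of -0.19. At an unadjusted p under 0.05, 16 were lower (55.2%) and 0 higher, against 2.9% of all genes in the lower direction, and limma called 0 of the 29. The medians were -0.21 for MYCi975 minus Vehicle and -0.16 for Combo minus TMP195, with 27 and 25 genes lower. The genes named in the following lists beyond the leading genes and the 2 with the smallest p were chosen after their values were seen, for an unadjusted p under 0.05 or for their place in the pathway.

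For glutathione synthesis, Slc7a11, which imports cystine, ran from 8.78 through 9.08 to 10.13 with MYCi975 and from 9 through 9.90 to 10.36 without. The arms overlapped widely, and the median library differed more than the ends. Slc7a11 differed by -0.63 (SE 0.19, limma adjusted p = 0.757) and Gclm, the regulatory subunit beside Gclc, by -0.27 (SE 0.12). Slc3a2, the partner chain of Slc7a11, is not a member of the NRF2 list and differed by -0.29 (SE 0.08). Gsr, glutathione reductase, ran from 11.36 to 11.83 with and from 11.70 to 12.24 without MYCi975, a difference of -0.26 (SE 0.08).

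For the thioredoxin system, Txnrd1, thioredoxin reductase 1, ran from 12.12 through 12.38 to 12.58 with MYCi975 and from 12.49 through 12.69 to 12.87 without. The difference was -0.29 (SE 0.08, limma adjusted p = 0.757). Srxn1, sulfiredoxin, differed by -0.24 (SE 0.11), while thioredoxin itself, Txn1, differed by -0.05 (SE 0.10) and Prdx1 by -0.16 (SE 0.08). Of the NADPH-producing enzymes, G6pdx (-0.23), Pgd (-0.16) and Me1 (-0.24) had an unadjusted p under 0.05, and Taldo1 (-0.01) and Tkt (-0.18) did not.

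The remaining members include genes of detoxification and iron handling. Hmox1, heme oxygenase 1, differed by -0.56 (SE 0.22), the ferritin heavy chain Fth1 by -0.32 (SE 0.11), Gsta4, a glutathione transferase, by -0.53 (SE 0.19) and the glutathione conjugate exporter Abcc1 by -0.29 (SE 0.09). Nqo1, a quinone reductase and widely used NRF2 target, differed by -0.35 (SE 0.16) with its arms at 6.84 to 7.85 and 7.16 to 8.19. Cat, catalase (-0.02), the ferritin light chain Ftl1 (-0.13), Gstp1 (-0.19), Blvrb (-0.11) and Ephx1 (-0.15) were not at an unadjusted p under 0.05. Cbr1 was the 1 gene above 0 (0.12, SE 0.10). The regulators themselves were near 0, with -0.09 (SE 0.11) for Nfe2l2, the gene of NRF2, and -0.13 (SE 0.09) for Keap1.

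The mean over the NRF2 list was 10.31 ± 0.12 (SD, n = 8) with MYCi975 and 10.53 ± 0.12 (SD, n = 8) without. The 8 libraries with MYCi975 ran from 10.17 to 10.54 and the 8 without from 10.35 to 10.69. The ranges overlapped between TMP195 replicate 4, at 10.35, and Combo replicate 1, at 10.54. The count of 16 became 7 without TMP195 replicate 2, 8 without Combo replicate 2, and 10 without either MYCi975 replicate 3 or Combo replicate 3, and its median stayed between -0.24 and -0.18 when any 1 library was left out.

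Glycolysis splits glucose to pyruvate, and its last steps and lactate export are known for being high in tumours. Of 22 genes 20 were lower and 2 higher, with a median of -0.23. At an unadjusted p under 0.05, 10 were lower (45.5%, against 2.9% of all genes) and 0 higher, and limma called 0. The medians of the 2 contrasts were -0.21 without TMP195 and -0.25 with it. The list shares Hk2 and Ldha with the MYC targets. Gapdh, Ldha, Pgam1 and, in the NRF2 list, Fth1 have processed pseudogenes of near-identical sequence, so their values are uncertain.

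Along the pathway, the glucose transporter Slc2a1 differed by -0.37 (SE 0.21) and the hexokinases Hk1 and Hk2 by -0.15 each (SE 0.09 and 0.13), none of them at an unadjusted p under 0.05. Of the phosphofructokinases, Pfkl (-0.32, SE 0.11) and Pfkp (-0.36, SE 0.15) were at that p, and Pfkm was not (-0.03, SE 0.09). Aldoa, aldolase, differed by -0.25 (SE 0.09), Pgk1, phosphoglycerate kinase, by -0.31 (SE 0.11) and Gpi1 by -0.21 (SE 0.09).

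Pkm, pyruvate kinase, ran from 15.15 through 15.42 to 15.46 with MYCi975 and from 15.44 through 15.65 to 15.91 without, so its arms touched at 1 edge. It differed by -0.26 (SE 0.08, limma adjusted p = 0.757). Gapdh (-0.15, SE 0.12) and the enolase Eno1 (-0.18, SE 0.12) were not at an unadjusted p under 0.05. Of the lactate exporters, Slc16a3 differed by -0.43 (SE 0.15) and Slc16a1 by -0.21 (SE 0.12). The 2 genes above 0 were Pfkfb4 (0.10, SE 0.16) and Eno2 (0.06, SE 0.16).

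The glycolysis mean was 11.83 ± 0.11 (SD, n = 8) with MYCi975 and 12.05 ± 0.18 (SD, n = 8) without. Libraries with MYCi975 ran from 11.64 to 11.99, and those without from 11.85 to 12.30. The 2 highest libraries were TMP195 replicates 2 and 3, at 12.30 each, and the lowest was MYCi975 replicate 3. The count of 10 ranged from 8 to 13 when any 1 library was left out.

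**Figure D2:**
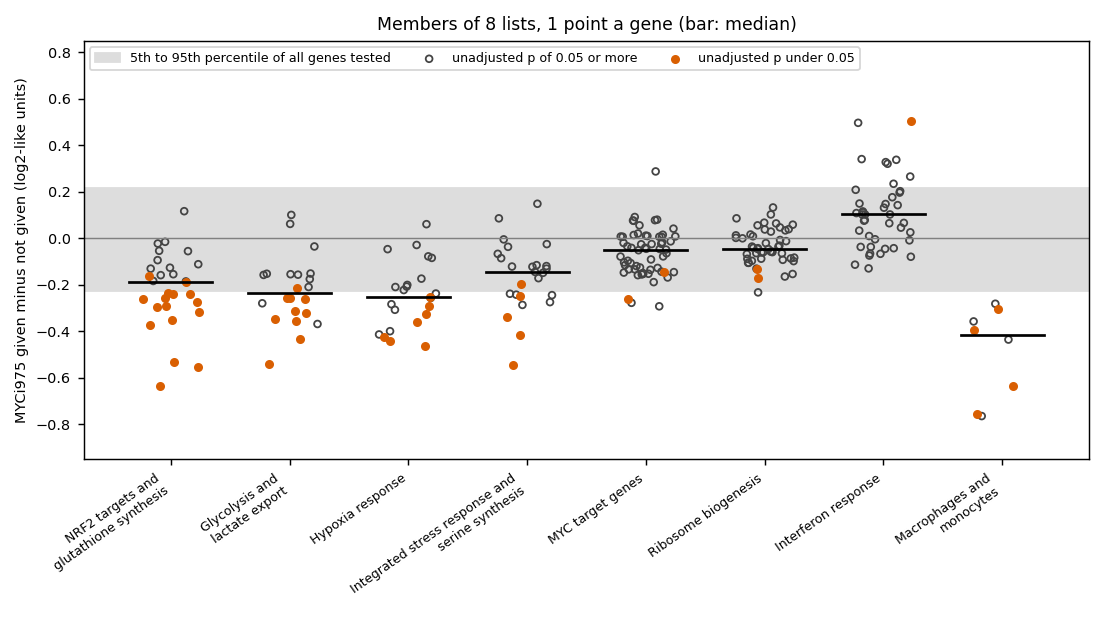
MYCi975 difference (given minus not given, log2-like units, vertical axis) of every tested gene in 8 lists (horizontal axis), filled where the unadjusted p was under 0.05, with the list median as a bar and the 5th to 95th percentile of all genes (-0.22 to 0.21) in grey. The NRF2, glycolysis, hypoxia and macrophage lists lie mostly below 0, and the MYC target and ribosome biogenesis lists gather around a median near 0.

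The hypoxia response is driven by hypoxia-inducible factors, which prolyl hydroxylases mark for decay when oxygen is present. Of 23 tested genes 22 were lower and 1 higher, with a median of -0.25. At an unadjusted p under 0.05, 7 were lower (30.4%, against 2.9% of all genes), and limma called 0. The median was -0.09 without TMP195, where 18 genes were lower, and -0.42 with it, where 22 were. Of the 23 genes, 1 had an interaction at an unadjusted p under 0.05, against 3% of all genes, and limma called 0 interactions over all genes, so the 2 contrasts were not shown to differ.

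Bnip3, a mitochondrial protein of mitophagy, ran from 11.03 through 11.28 to 11.82 with MYCi975 and from 11.31 through 11.75 to 12.31 without. Its group means were 11.54 in Vehicle, 11.34 in MYCi975, 12.02 in TMP195 and 11.37 in Combo, so TMP195 alone was the highest. The difference was -0.43 (SE 0.14, limma adjusted p = 0.757). Ankrd37 differed by -0.36 (SE 0.12) and Bnip3l, a relative of Bnip3, by -0.29 (SE 0.10).

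Car9, the carbonic anhydrase used as a hypoxia marker, had group means of 6.83 in Vehicle, 6.88 in MYCi975, 7.75 in TMP195 and 6.78 in Combo. Its difference was -0.46 (SE 0.18), made up of 0.05 without TMP195 and -0.97 with it. Ndrg1, a stress-induced gene, had the same order of differences (-0.16 and -0.72), as had Vegfa, the vascular growth factor (-0.12 and -0.54). Egln1, a prolyl hydroxylase, differed by -0.17 and -0.34.

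The hypoxia mean was 10.58 ± 0.14 (SD, n = 8) with MYCi975 and 10.82 ± 0.28 (SD, n = 8) without. Vehicle replicate 2 (10.46) and Vehicle replicate 4 (10.52) lay among the lowest libraries of all, and TMP195 replicates 2 and 3 were the highest at 11.23 and 11.15. The count of 7 became 4 without Combo replicate 3, 12 without Vehicle replicate 2, and 11 without Vehicle replicate 4, TMP195 replicate 1, MYCi975 replicate 1 or MYCi975 replicate 4.

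Lists of amino acid supply had smaller medians. Of 25 genes of the integrated stress response and serine synthesis 23 were lower (median -0.14). At an unadjusted p under 0.05, 5 were lower (20%, against 2.9% of all genes). These were Eif4ebp1, the folate enzymes Mthfd1l (-0.34, SE 0.14) and Aldh1l2 (-0.41, SE 0.18), the proline synthesis gene Aldh18a1 (-0.20, SE 0.09) and Vldlr, a lipoprotein receptor (-0.55, SE 0.23). Atf4, the transcription factor of the response, differed by -0.12 (SE 0.12) and the serine synthesis gene Phgdh by -0.15 (SE 0.23). Of 17 polyamine and amino acid uptake genes 14 were lower (median -0.12), and 3 were at that p (17.6%): Slc7a11, Slc3a2 and Slc7a5, the large neutral amino acid transporter (-0.33, SE 0.14). Slc7a11 is counted in the NRF2 list as well.

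Lipid synthesis, mitochondrial and cell cycle lists lay close to 0. Cholesterol synthesis had 20 of 24 genes lower (median -0.08). Its 1 gene at an unadjusted p under 0.05 (4.17%, against 2.9% of all genes in the lower direction) was Hsd17b7 (-0.24, SE 0.10). The medians of the list were -0.22 without TMP195, where all 24 genes were lower, and 0.04 with it, where 9 were. Fatty acid synthesis had 13 of 16 lower, with Me1 at that p. For the respiratory chain 26 of 51 nuclear genes (median -0.02) and 7 of 13 mitochondrial genes (median -0.02) were lower, none at that p, and 49 of the 51 nuclear genes had intervals within 1.5-fold. Mitochondrial ribosomal protein genes had 33 of 60 lower with a median of -0.01. In the citrate cycle list 12 of 20 were lower, with Pdhb, a pyruvate dehydrogenase subunit, at that p (-0.20, SE 0.09).

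Of 38 mitosis genes 33 were lower (median -0.07) and of 44 DNA replication genes 29 (median -0.04), with 0 at an unadjusted p under 0.05 in either. The limma intervals of 37 of the 38 and of all 44 lay within 1.5-fold. Vehicle replicate 4 had the highest mean of both lists. Over all 8 against 8, the mitosis median was -0.00986 without all libraries numbered 4. The DNA replication median was 0.017 without Vehicle replicate 4. In MYCi975 minus Vehicle alone 37 of the 38 mitosis genes were lower (median -0.16), and in Combo minus TMP195 12 were (median 0.02). For the 44 DNA replication genes, 39 were lower in the first contrast (median -0.14) and 15 in the second (median 0.04). Of all 15715 genes, 8318 were lower in the first contrast and 7748 in the second. No mitosis gene had an interaction at an unadjusted p under 0.05, and 2 DNA replication genes did, against 3% of all genes. Kif4, a mitotic kinesin, differed by -0.35 and 0.02 in the 2 contrasts. It was at 10.96 in Vehicle replicate 4 and at 10.08 to 10.52 in the other Vehicle libraries. Its 8 against 8 difference was -0.16, and -0.03 without all libraries numbered 4. Of 18 tested p53 targets and CDK inhibitors 14 were higher (median 0.05), none at that p, and the median was -0.03 without TMP195 replicate 4 and -0.07 without all libraries numbered 4.

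**Figure D3:**
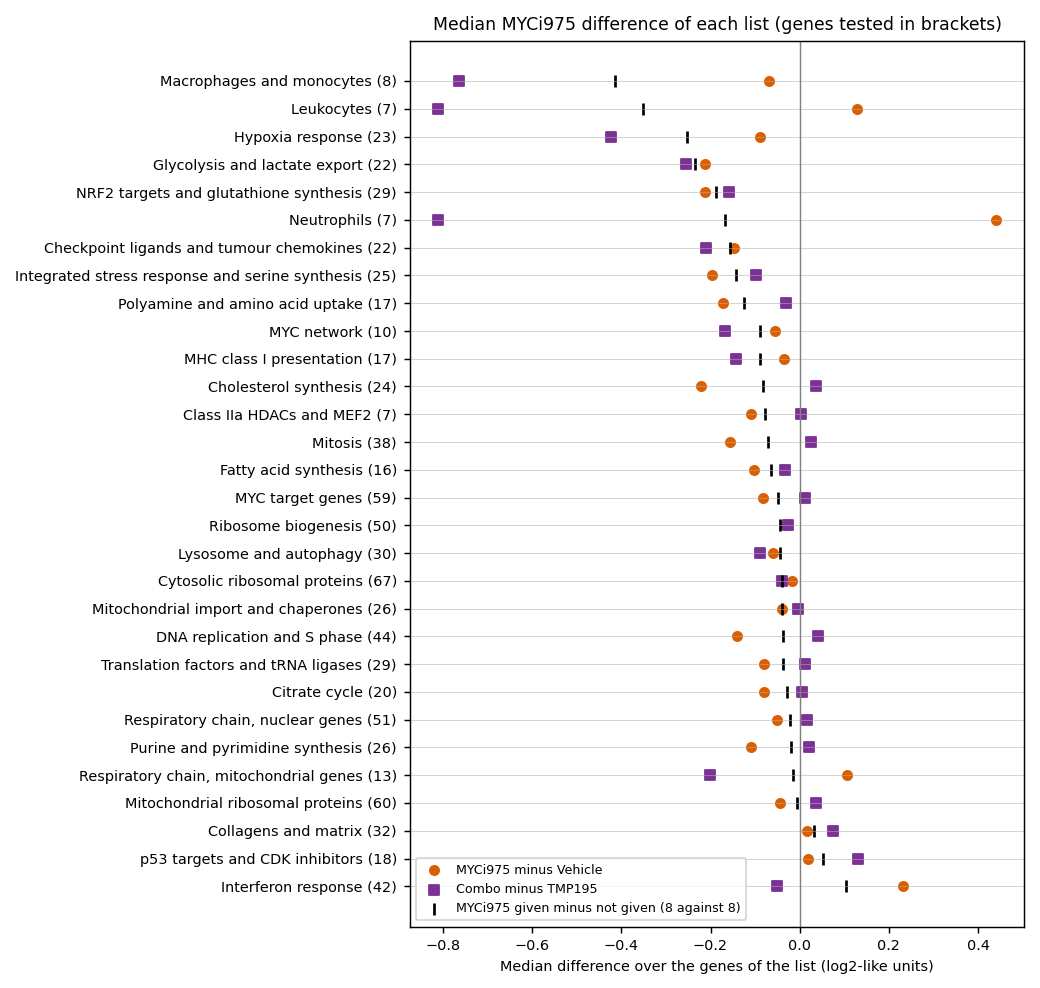
Median difference (log2-like units, horizontal axis) of each gene list (vertical axis, genes tested in brackets) for MYCi975 minus Vehicle (circles), Combo minus TMP195 (squares) and all 8 against 8 (ticks). The 2 contrasts lie side by side for NRF2 targets (-0.21 and -0.16) and glycolysis (-0.21 and -0.25), and far apart for macrophages (-0.07 and -0.76) and the interferon response (0.23 and -0.05).

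Immune signals of the enriched cells were mixed. Of 42 interferon response genes 30 were higher with MYCi975 (median 0.10), and 1 was at an unadjusted p under 0.05 (2.38%, against 2.5% of all genes in the higher direction). That gene, Zbp1, a sensor of Z-form nucleic acids, ran from 9.11 through 10.03 to 10.88 with MYCi975 and from 9 through 9.55 to 9.85 without, a difference of 0.50 (SE 0.15, limma adjusted p = 0.757). Combo replicate 4, at 9.11, and MYCi975 replicate 3, at 9.80, lay inside the range of the other arm. The interferon list's mean was highest in MYCi975 replicate 3 (10.08) and its median difference was -0.04 without that library and -0.00288 without Vehicle replicate 3.

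Of 22 checkpoint ligand and chemokine genes 20 were lower (median -0.16), with 4 at an unadjusted p under 0.05 (18.2%, against 2.9% of all genes). Of the 22, 14 were lower in MYCi975 minus Vehicle (median -0.15) and 17 in Combo minus TMP195 (median -0.21). An interaction at an unadjusted p under 0.05 was found for 4 of them, against 3% of all genes, though limma called 0. Cxcl5, a neutrophil-attracting chemokine, ran from 8.94 through 9.41 to 10.38 with MYCi975 and from 9.61 through 10.04 to 11.32 without, a difference of -0.74 (SE 0.25, limma adjusted p = 0.757). TMP195 replicates 2 and 3, at 11.32 and 11.12, were the highest. Il33, an alarmin cytokine, differed by -0.41 (SE 0.17), Cxcl1 by -0.44 (SE 0.20) and Cxcl16 by -0.38 (SE 0.17), while Cd274, the gene of the checkpoint ligand PD-L1, differed by -0.09 (SE 0.23). Among 32 collagen and matrix genes 18 were higher and 14 lower, with 3 at an unadjusted p under 0.05 in each direction (9.38% each, against 2.5% and 2.9% of all genes). The 3 higher were Col5a2 (0.44, SE 0.20), Col3a1 (0.31, SE 0.14) and Col6a3 (0.38), and the 3 lower were Thbs1, thrombospondin 1 (-0.56, SE 0.21), and the basement membrane collagens Col4a2 (-0.24) and Col4a1 (-0.29).

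Leukocyte markers were lower in Combo than in TMP195, and went both ways in MYCi975 against Vehicle. Of 13 macrophage and monocyte markers 8 were tested, and these 8 were lower with MYCi975 (median -0.42). At an unadjusted p under 0.05, 4 were lower (50%, against 2.9% of all genes). Some of the 8 tested, such as Csf1r, passed the filter on low values only with the help of libraries without MYCi975. These counts are therefore partly fixed by the filter and are a description. Their mean was 6.46 ± 0.21 (SD, n = 8) with MYCi975, over a range of 6.21 to 6.76, and 6.95 ± 0.66 (SD, n = 8) without, over 6.29 to 8.12. The medians were -0.07 for MYCi975 minus Vehicle, with 5 of 8 lower, and -0.76 for Combo minus TMP195, with 8 of 8 lower, and 5 of the 8 had an interaction at an unadjusted p under 0.05, against 3% of all genes, though limma called 0. The others, Adgre1, C1qa, C1qb, C1qc and Fcgr1, were too low to be tested and stood at the lowest value in 1 to 3 libraries each.

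Cd68, a lysosomal protein of macrophages, ran from 6.01 to 6.48 with MYCi975 and from 6.43 to 6.99 without (-0.40, SE 0.10). Ptprc, the leukocyte marker CD45, had libraries at 6.66, 7.10, 6.39 and 7.52 in Vehicle, 6.55, 5.87, 8.04 and 7.16 in MYCi975, 8.95, 8.19, 7.30 and 7.77 in TMP195, and 6.64, 7.06, 5.81 and 7.10 in Combo. The TMP195 group was the highest, and MYCi975 replicate 3 was the highest library with MYCi975. Ptprc differed by -0.71 (SE 0.33, limma adjusted p = 0.916), made up of -0.01 without TMP195 and -1.40 with it. The 7 leukocyte markers tested, of 9, had medians of 0.13 for MYCi975 minus Vehicle (2 lower) and -0.81 for Combo minus TMP195 (7 lower). An interaction at an unadjusted p under 0.05 was found for 4 of them, against 3% of all genes, though limma called 0. Of these 7, Cd53 and Lcp2 passed the filter only with the help of libraries without MYCi975. Over all 16 libraries the 7 markers had a median of -0.35 and a range of means of 5.75 to 6.96 with MYCi975 and 5.97 to 7.73 without.

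The 3 pathway lists with the largest shares of genes lower at an unadjusted p under 0.05 were recomputed beside these markers. Without TMP195 replicate 1 and MYCi975 replicate 3, the 2 libraries highest in leukocyte markers, 12 NRF2, 10 glycolysis and 11 hypoxia genes were lower at an unadjusted p under 0.05. Without all libraries numbered 4 the counts were 17, 13 and 11. With the macrophage mean as a covariate, chosen after the data were seen, 13 NRF2 genes were at that p, and the list medians were -0.26 for NRF2 and -0.35 for glycolysis. The MYC target count was 2 in both sets of fewer libraries and 5 with either covariate.

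**Figure D4:**
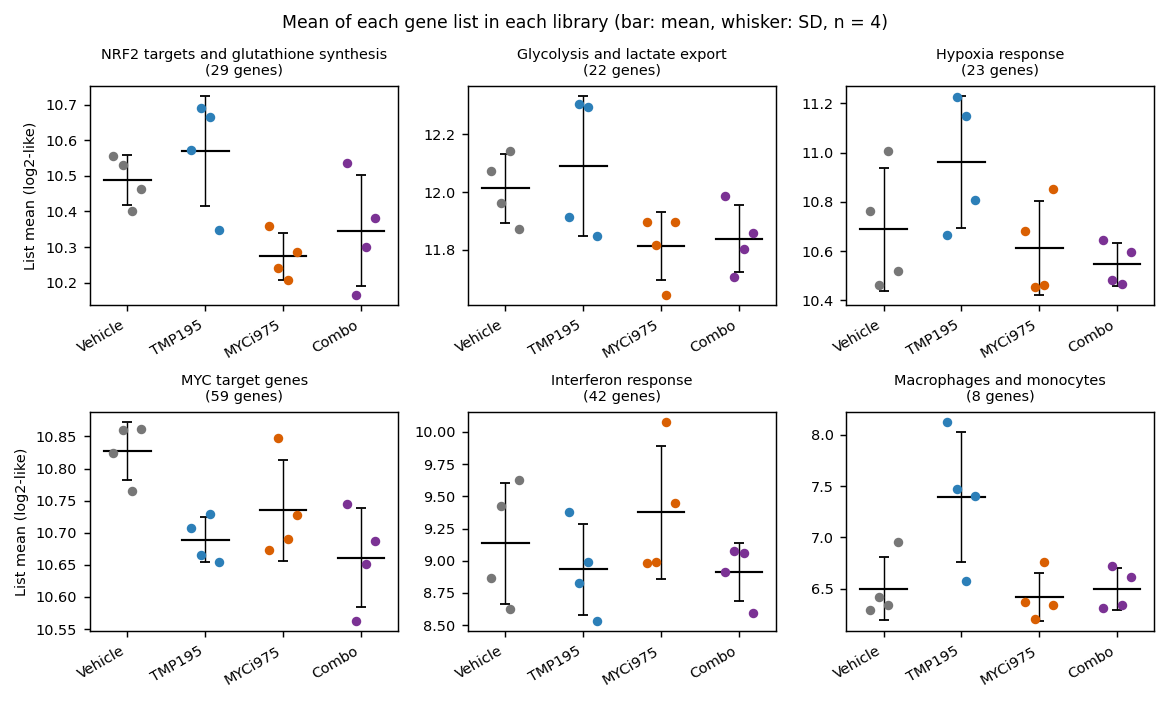
Mean of 6 gene lists (log2-like units, vertical axis) in each library of Vehicle, TMP195, MYCi975 and Combo, with the group mean (bar) and SD (whisker, n = 4). In the NRF2 and glycolysis panels both groups with MYCi975 sit below their counterparts with some overlap, while in the macrophage panel TMP195 stands high, up to 8.12, and the other 3 groups share a range of 6.21 to 6.95.

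The 2 contrasts that make up the comparison resembled each other little from gene to gene. MYCi975 minus Vehicle had 476 genes at an unadjusted p under 0.05 (3.03%) and Combo minus TMP195 837 (5.33%), with 0 called by limma in either. The smallest limma adjusted p was 0.999 in the first and 0.0787 in the second. Over 15715 genes the 2 differences had Pearson's r of 0.05 and Spearman's rho of 0.07, and 52.5% had the same sign. Genes are not independent replicates, so these describe the table. The interaction had 471 genes at an unadjusted p under 0.05 (3%) and 0 called.

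**Figure D5:**
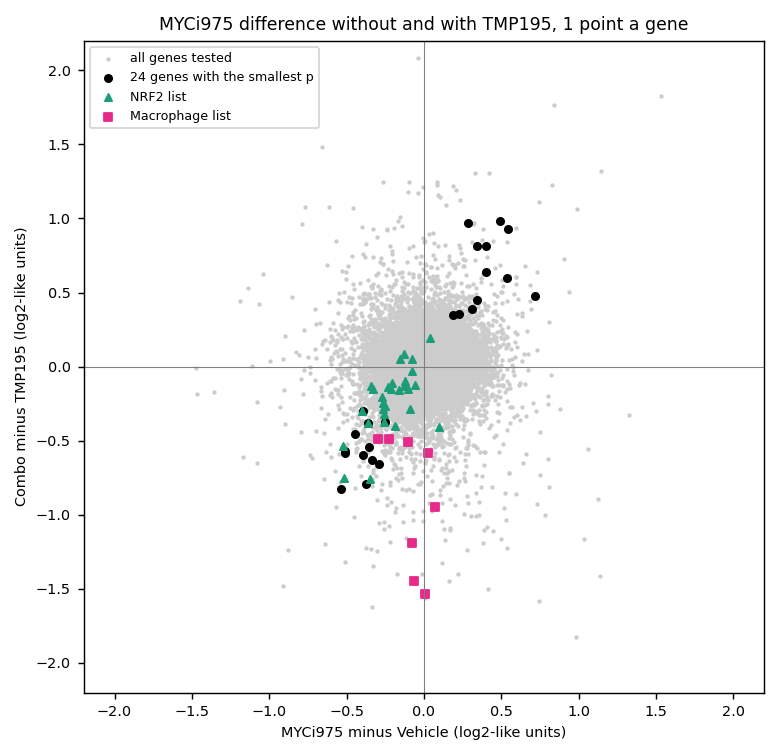
MYCi975 minus Vehicle (horizontal axis) against Combo minus TMP195 (vertical axis), log2-like units, 1 point a gene (1 gene lies outside the plot), with the 24 leading genes in black, NRF2 list genes as triangles and macrophage markers as squares. The cloud of all genes is round (r = 0.05), NRF2 genes lie mostly where both differences are below 0, and macrophage markers lie low on the vertical axis alone.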

How the data were processed

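RNA-seq libraries of LLC1 tumour cells enriched from mice (4 groups of 4) were analysed from 1 deposited table of 24334 mouse genes. The authors deposited variance-stabilised values close to a log2 scale, with the same lowest value, 4.84, in all libraries. The submitters' processing notes name Salmon and the human build hg38, although the genes are mouse; the stabilising tool and mouse annotation were not stated. Counts were not used here and depth is unknown, so no interval needing counts was given. No coordinates of the deposited genes were used.

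Genes at least 1 above the lowest value in 4 or more of 16 libraries were tested (15715). limma 3.58.1 in R 4.3.3 fitted MYCi975 given (yes or no) with TMP195 given as a covariate, moderated with an intensity trend, two-sided, with Benjamini-Hochberg adjustment over all genes tested and a threshold of 0.05. A fit with 1 mean per group gave MYCi975 minus Vehicle, Combo minus TMP195 and their interaction. The fit was tested on simulated data. Lists (27 pathway, 15 cell type, 2 other) are described by counts and medians, with no test. Symbols cover 23150 genes (95.13%).

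Named genes were the 12 higher and 12 lower with the smallest p (predicted or unnamed genes passed over), a fixed set (Myc, Max, Mxd1, Mxd4, Mxi1, Mnt, Mga, Mlx, Hdac4, Hdac5, Hdac7, Hdac9, Ptprc) and the 2 members of each pathway list with the smallest p among those with the sign of the list's median. The comparison, its members and the lists were chosen with earlier results of these data known. Alternatives covered filters, normalisation, moderation, library weights, covariates, the replicate block and leaving out libraries.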

Additional observations from a re-analysis of the deposited data

Results flagged for a closer look

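In 15 of 476 groups of 4 libraries examined, 1 library lay far from the other 3 by Dixon's criterion (a gap over 0.829 of the range). Chance alone gives about 1 in 20. The causes were not tested.

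Among leading genes, Ror1 was 6.68 in Vehicle replicate 1, with the nearest library of its group at 6.08. Pdk1 was 10.89 in TMP195 replicate 1 (nearest 11.79) and 10.47 in MYCi975 replicate 3 (nearest 11.05). In the MYC network, Max was 10.40 (nearest 10.69) and Mlx 9.43 (nearest 8.77), both in Vehicle replicate 4.

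In the pathway lists, Mthfd1l was 12.46 in Vehicle replicate 4 (nearest 11.59) and 11.15 in Combo replicate 3 (nearest 11.28). Eif5a was 13.27 (nearest 12.81) and Txnrd1 12.51 (nearest 12.69) in TMP195 replicate 4. Bnip3 was 11.69 in Combo replicate 1 (nearest 11.30), Idh3g 9.97 in TMP195 replicate 1 (nearest 10.29) and Zbp1 9.11 in Combo replicate 4 (nearest 9.89).

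Of the list means, polyamine and amino acid uptake was 11.25 in Vehicle replicate 2 (nearest 11.09). The immediate early and dissociation stress mean was 11.36 in MYCi975 replicate 4 (nearest 10.76), and the fibroblast and pericyte mean 12.07 in Combo replicate 3 (nearest 11.71).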

How the results depend on the processing

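limma called 0 genes for MYCi975 given or not in all 31 alternatives, with the smallest adjusted p between 0.0612 (without Vehicle replicate 1) and 0.999. The median of all genes was 0.00325 with quantile normalisation and -0.00362 with median centring. Genes at an unadjusted p under 0.05 numbered 643 higher with no filter, and 665 higher and 824 lower with library weights; leaving out 1 library gave 313 to 502 higher and 333 to 569 lower. Combo minus TMP195 had 22 genes called with library weights, 1 with no intensity trend (Cd93), 1 without both libraries with the most leukocyte markers (Pdk1), 2 without TMP195 replicate 3 (Csf1r, Ccr2) and 1 without Combo replicate 4 (Cd93), so 0 to 2 on leaving out 1 library. MYCi975 minus Vehicle had 0 to 1 (Gm15801, without MYCi975 replicate 2). These genes were chosen after their values were seen.

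Same-numbered libraries were not taken as paired, since the labels do not state it. Some likeness by number was nevertheless present, as 15 of 24 such pairs had a correlation over 0.1 (range -0.24 to 0.43). All pairs numbered 1 (0.202 to 0.428) and 4 (0.172 to 0.387) did, and 9 of 16 libraries correlated best with their own number. The source of this likeness was not tested. A replicate block called 0 genes, with 472 higher and 576 lower at an unadjusted p under 0.05, and 5 MYC target, 18 NRF2, 11 glycolysis and 10 hypoxia genes lower at that p.

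Of 83 named genes 6 changed sign in some alternative. Of 36 lists with at least 5 genes tested, 8 had a median of at least 0.05 from 0 that changed sign. The leukocyte and macrophage covariates are the means of those same marker lists. By construction, each covariate therefore draws the median of its own list towards 0. The cause of the other changes was not tested. Without all libraries numbered 4 the medians were -0.0694 for p53 targets and 0.0201 for mesenchymal markers, and Mga was 0.0228 and Mlx 0.0112. With the leukocyte covariate they were 0.0508 for MHC class I, 0.0543 for leukocytes and 0.289 for neutrophils, and Mxd1 was 0.124 and Nlrc5 0.0481. With the macrophage covariate they were 0.0512 for MHC class I, 0.248 for leukocytes, 0.0318 for macrophages, 0.334 for neutrophils and -0.102 for fibroblasts. Mxd1 was 0.139, Mga 0.047, Ptprc 0.0344 and Nlrc5 0.0647 with that covariate. The dendritic cell median moved from -0.36 to -0.066 there and kept its sign. The stricter filter gave 0.0251 for neutrophils, library weights 0.00318 for Mga, and Max was 0.0164 with quantile normalisation and 0.0179 without both libraries with the most leukocyte markers. Leaving out 1 library gave -0.0265 to 0.0981 for p53 targets, -0.0351 to 0.167 for interferon response, -0.0502 to 0.0284 for Max and -0.135 to 0.0397 for Mxd1. MYC targets lower at an unadjusted p under 0.05 numbered 1 to 7, NRF2 genes 7 to 19, glycolysis genes 8 to 18 and hypoxia genes 4 to 16, each highest with library weights.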

Other observations

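Some gene groups that take part in no comparison above had these values with MYCi975 against without. Of 30 lysosome and autophagy genes 22 were lower (median -0.04), 3 of them at an unadjusted p under 0.05 (10%, against 2.9% of all genes). They include Tfe3, a transcription factor of lysosomal genes (-0.23, SE 0.07), and Gla, a lysosomal galactosidase (-0.29, SE 0.14). In the higher direction 1 was at that p (3.33%, against 2.5%), Tfeb, a relative of Tfe3 (0.21, SE 0.09). Of 9 dendritic cell and MHC class II genes 7 were lower (median -0.36), with 3 at that p (33.3%, against 2.9%). The medians were -0.14 without TMP195 and -0.69 with it. Which libraries let these 9 genes pass the filter on low values was not examined, so their counts are a description. Of 8 fibroblast and pericyte genes 6 were higher (median 0.25), with 1, Col3a1, at that p (12.5%, against 2.5%). The medians were -0.13 without TMP195 (5 of 8 lower) and 0.31 with it (2 of 8 lower). Of 7 neutrophil genes 6 were lower over all 8 against 8 (median -0.17). Their medians were 0.44 without TMP195 (0 of 7 lower) and -0.81 with it (6 of 7 lower). An interaction at an unadjusted p under 0.05 was found for 4 of the 7, against 3% of all genes, though limma called 0. How these 7 passed the filter on low values was not examined either. Replication-dependent histone genes were split, 24 higher and 23 lower.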
